A study of Mus musculus with 17 samples.

Results

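The genes described here act in mitosis and in the spindle assembly checkpoint. They are 40 genes taken by name, with earlier results of these data known, and 39 of them had a value among the 20227 genes measured. The exception was Ccnb1 (cyclin B1), to which no probe set of the array is annotated in the table used, so it was not analysed here. The samples were 17 cultures of 32D cells. These mouse cells resemble myeloblasts and depend on interleukin-3 (IL-3) for growth. Each of 9 ITD lines carried a different human FLT3 with an internal tandem duplication (FLT3/ITD), was grown without IL-3, and gave 1 array. Cells with wild-type human FLT3 were grown with FLT3 ligand at 20 ng/mL (2 arrays) or without it (2 arrays). Empty pLXRN vector cells and untransduced parental cells gave 2 arrays each. Parental, vector and wild-type FLT3 cells without ligand received mouse IL-3 at 1 ng/mL. The culture description does not state outright whether the cells given ligand received it too. In comparisons with that group, a difference in IL-3 can therefore not be told apart from those in ligand or receptor. All transduced cells were polyclonal populations made with a retrovirus, and those with the vector or wild-type FLT3 were selected with G418. The labels call the pairs biological replicates, without saying whether they are separate lines or separate cultures of 1 line. The limma p-values rest on 1 error shared over all groups. Of its 12 residual degrees of freedom, 8 come from the spread among the 9 different ITD lines. Because every ITD line grew without IL-3 and every parental, vector and wild-type FLT3 culture without ligand received it, the mutant receptor and the absence of the cytokine cannot be told apart in any comparison between them.

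Entry into mitosis is driven by the kinase Cdk1 bound to cyclins A and B, with the Polo-like and Aurora kinases acting beside it on centrosomes, spindle and chromosomes. Kinetochores on the centromeres catch microtubules, and until every chromosome is attached the checkpoint proteins of the Mad and Bub families hold back Cdc20, the activator of the anaphase-promoting complex. Once released, this ubiquitin ligase destroys securin and cyclin B, separase cuts the cohesin rings, and kinesins and actin regulators divide the cell. Transcripts of these genes peak in the G2 and M phases in cycling mammalian cells, and many of their promoters hold a CCAAT box, the site of the factor NF-Y, and a cell cycle genes homology region (CHR), the site of complexes that contain MuvB.

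The promoters below show how these elements stand in 6 genes that hold both, beside Pttg1, which holds neither, and the 7 genes differ in their pattern over the cultures. Each run covers 120 bases before and 30 bases after the annotated start site, 5′ to 3′ on the gene's strand, from RefSeq on GRCm38.p6. Capitals mark the letters of the CHR (TTTGAA or its reverse complement TTCAAA) and of the CCAAT box (CCAAT or ATTGG).
Cdk1: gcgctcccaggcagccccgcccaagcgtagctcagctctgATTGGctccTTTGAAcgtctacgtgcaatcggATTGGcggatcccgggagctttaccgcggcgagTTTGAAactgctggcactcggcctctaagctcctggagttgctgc
Ccnb2: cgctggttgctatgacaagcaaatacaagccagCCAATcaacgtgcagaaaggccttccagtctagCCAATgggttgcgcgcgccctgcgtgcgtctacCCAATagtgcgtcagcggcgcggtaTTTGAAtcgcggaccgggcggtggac
Kif11: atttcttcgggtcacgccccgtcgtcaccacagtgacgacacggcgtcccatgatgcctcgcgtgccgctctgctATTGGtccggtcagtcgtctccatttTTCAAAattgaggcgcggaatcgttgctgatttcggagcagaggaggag
Espl1: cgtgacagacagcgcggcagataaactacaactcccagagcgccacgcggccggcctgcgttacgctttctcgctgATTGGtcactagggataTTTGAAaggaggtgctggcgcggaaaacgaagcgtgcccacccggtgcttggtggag
Ttk: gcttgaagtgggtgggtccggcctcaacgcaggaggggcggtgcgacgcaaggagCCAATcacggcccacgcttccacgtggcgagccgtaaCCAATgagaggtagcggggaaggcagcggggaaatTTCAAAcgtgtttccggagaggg
Kif23: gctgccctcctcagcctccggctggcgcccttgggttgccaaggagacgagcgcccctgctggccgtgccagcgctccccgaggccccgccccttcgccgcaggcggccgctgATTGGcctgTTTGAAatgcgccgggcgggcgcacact
Pttg1: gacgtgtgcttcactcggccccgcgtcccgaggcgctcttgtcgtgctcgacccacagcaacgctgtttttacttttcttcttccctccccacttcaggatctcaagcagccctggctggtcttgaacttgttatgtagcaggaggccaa
The runs lie at chr10:69352883-69353032 (minus strand) for Cdk1, chr9:70421525-70421674 (minus strand) for Ccnb2, chr19:37376262-37376411 (plus strand) for Kif11, chr15:102296173-102296322 (plus strand) for Espl1, chr9:83834569-83834718 (plus strand) for Ttk, chr9:61946770-61946919 (minus strand) for Kif23 and chr11:43425952-43426101 (minus strand) for Pttg1.

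RefSeq promoters of 300 bases (250 before to 50 after the start) were at hand for 33 of the 40 genes, with 36 promoters in all. The CHR letters stood in 26 of the 36 promoters (72.2%), against 17.9% of all 32851 promoters in the table. The CCAAT letters stood in 28 (77.8%), against 37.4% of all promoters, and both elements together in 23 (63.9%), against 6.95%. Both strands were searched, and neither string contains the other. In the Cdk1 promoter an ATTGG stood with a TTTGAA after it, and a second such pair followed nearer to the start. Kif11, the motor that pushes spindle poles apart, and Espl1, which encodes separase, each had a single CCAAT box followed by a single CHR before the start. Ttk and Ccnb2 held 2 and 3 CCAAT boxes before the start and a CHR just after it, at positions 8 and 5. Ccnb2 held a further CHR at -167, outside the run shown. Kif23 held its CCAAT box just before the start and its CHR at position 3. Neither string occurred in the Pttg1 window, nor in the 300-base promoters of Pttg1, Plk4, Mad2l1, Birc5 and Nuf2. Of these, Plk4, Mad2l1 and Nuf2 were higher in the ITD lines than in vector cells (limma adjusted p under 0.05), as 8.82% of all genes were. Birc5 and Pttg1 did not pass that threshold. Whether these elements relate to the levels was not tested. Genes without a promoter in the table were Ccna2, Incenp, Tpx2, Cdc25c, Foxm1, Kif20a and Aurkb.

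Levels are log2 signals of the array, and a gene's level is the mean over its probe sets, 857 probe sets for the 39 genes together. The mean over all genes differed little between arrays (7.21 to 7.28). Of 10 markers of myeloid progenitors 9 were measured, with a mean level of 9.26 to 9.71 over the ITD lines, 9.53 and 9.57 with ligand, 9.42 and 9.44 with wild-type FLT3, 9.91 on both vector arrays, and 10.12 and 10.17 in parental cells. The granule proteins Mpo, Ctsg and Prtn3 were between 10.25 and 12.64 on all arrays, and Cd34 and Kit between 5.14 and 5.88, near the lower quartile of all gene means (5.85). The other 4 lay above Cd34 and Kit on every array: the transcription factor Myb averaged 11.01 in the ITD lines, 10.38 with ligand, 10.01 with wild-type FLT3 and 11.32 in both vector and parental cells, and the IL-3 receptor subunit Csf2rb 10.36, 9.69, 9.59, 10.57 and 11.46 in the same order of groups, with Il3ra between 8.69 and 10.25 and Spi1 between 8.85 and 10.27. Of the erythroid markers (3 of 5 measured), Epor averaged 7.66 in the ITD lines, 6.88 with ligand, 7.02 with wild-type FLT3, 7.91 with the vector and 8.83 in parental cells, while Alas2 and Slc4a1 lay between 5.30 and 6.46. Mean levels of the lymphoid (4 of 5) and stromal (5 of 5) markers lay between 5.62 and 6.27 on every array. What part these marker differences had in the results was not tested. Flt3 averaged 7.16 in the ITD lines, 6.89 with ligand, 6.76 with wild-type FLT3, 5.19 with the vector and 5.25 in parental cells. Whether its mouse probe sets read the human transgene or the mouse gene was not tested.

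By group mean, mitosis genes were highest in wild-type FLT3 cells given ligand and lowest in vector cells, with the mean of the ITD lines between them. Averaged over the 39 genes, the level on ITD lines 1 to 9 was 9.40, 9.48, 9.56, 9.50, 9.62, 9.30, 9.04, 9.23 and 9.44. It was 9.61 and 9.69 with ligand, 9.30 and 9.20 with wild-type FLT3 alone, 8.90 and 8.88 with the vector, and 9.20 and 9.11 in parental cells. All ITD lines except line 7 lay above both parental arrays, and all 9 lay above both vector arrays. Single genes followed the same order: the ligand group had the highest of the 5 group means for 35 of the 39 genes (21.1% of all genes), and the vector group the lowest for 32 (20.7% of all genes). Incenp was highest in the ITD lines, and Ccnb2, Cenpa and Mki67 were highest in parental cells. Aurka, Birc5, Pttg1 and Ube2c were lowest in parental cells, and Ccnb2, Aurkb and Mki67 in wild-type FLT3 cells. In RNA from whole cultures, a larger share of cells in mitosis and more of these transcripts per cell cannot be told apart.

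**Figure D1:**
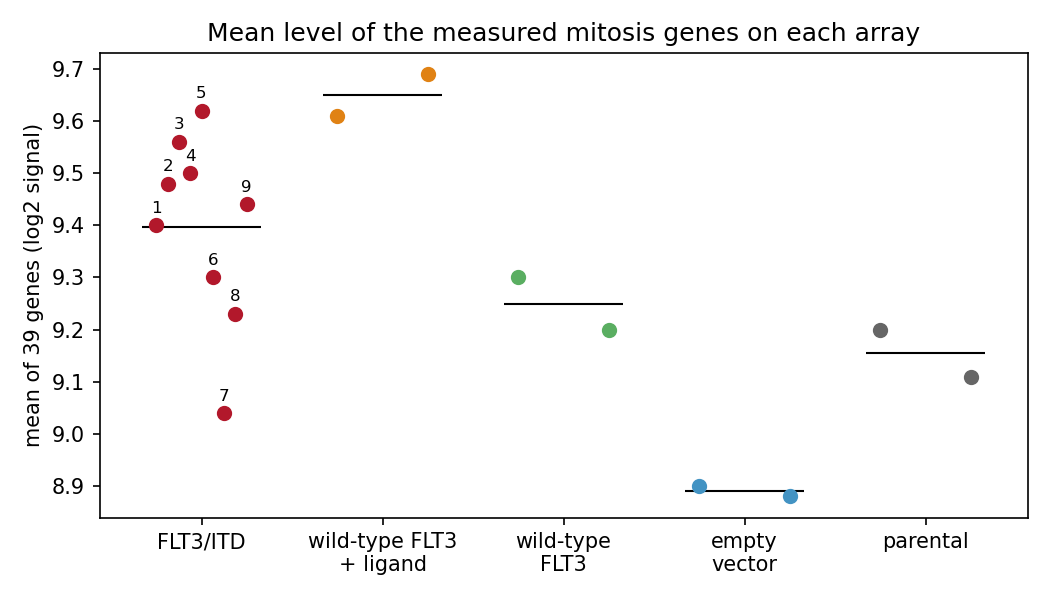
Mean log2 signal of the 39 measured mitosis genes on each of the 17 arrays (vertical axis), by group (horizontal axis), with points for arrays, numbers for ITD lines and lines for group means. The ligand arrays (9.61 and 9.69) and the vector arrays (8.90 and 8.88) form the ends, and the ITD lines spread between 9.04 and 9.62.

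**Figure D2:**
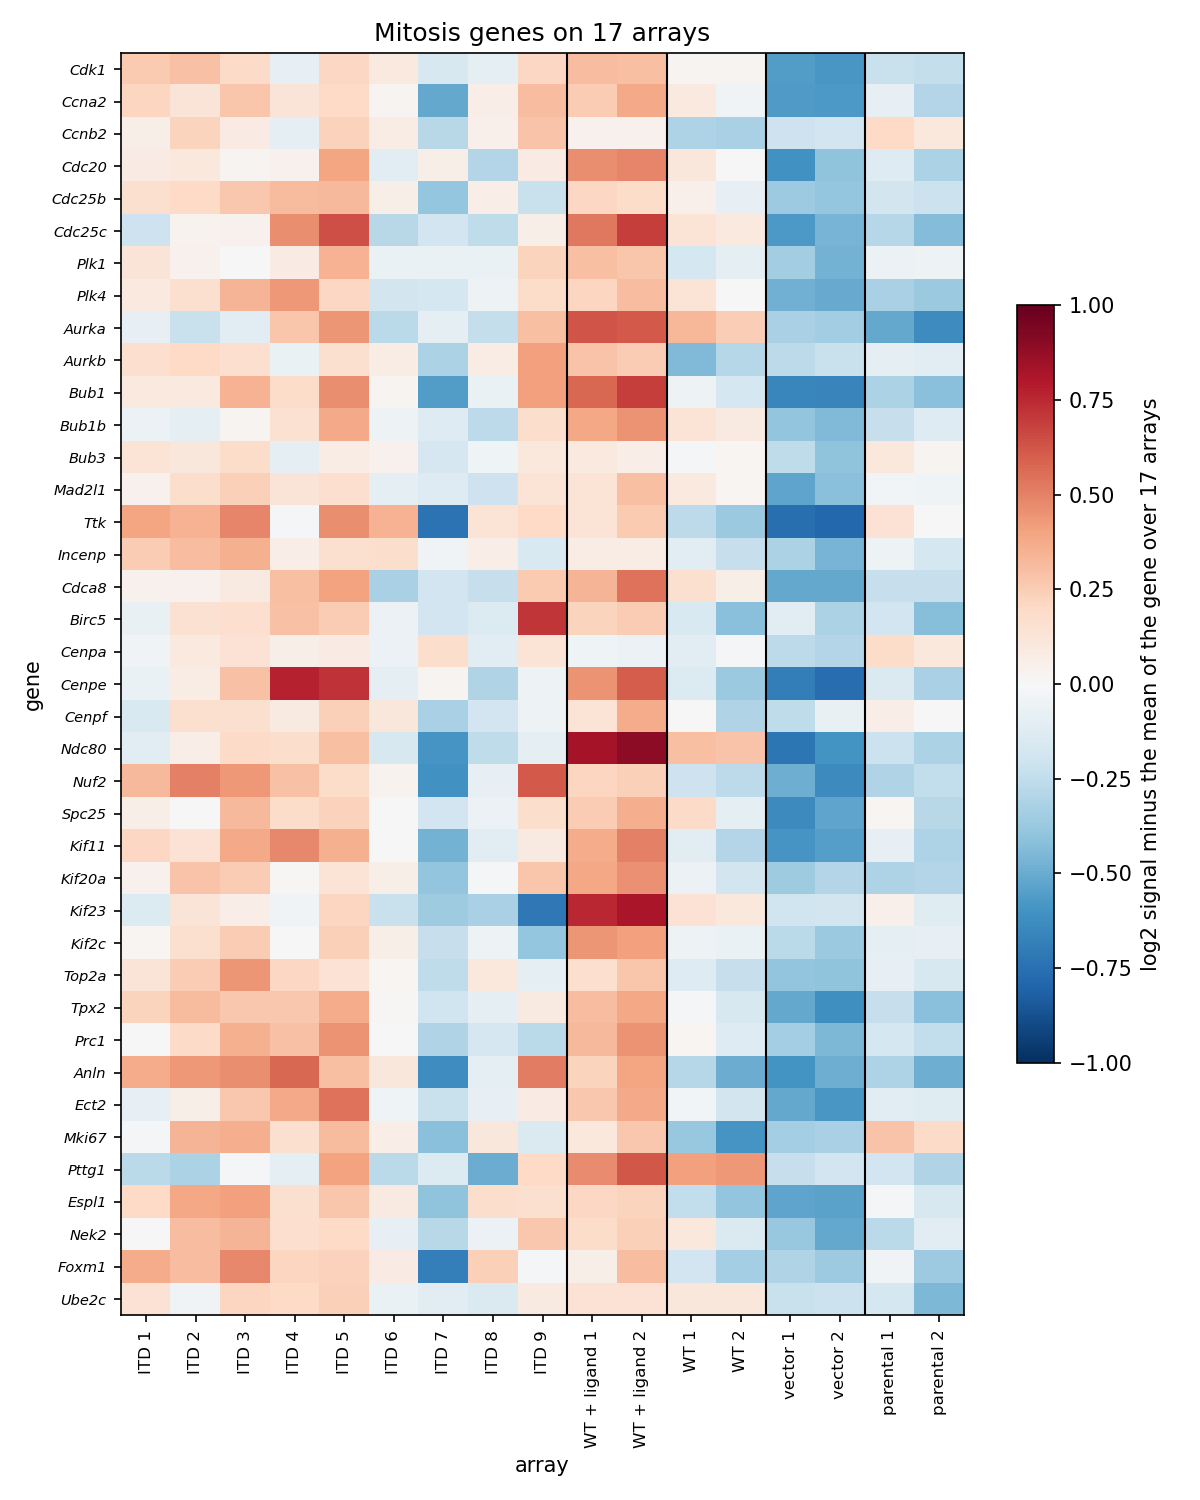
Log2 signal of each of 39 genes (rows) on each of 17 arrays (columns), shown as the deviation from that gene's mean over all arrays, red above and blue below, with the scale ending at 1 in either direction. The vector columns are blue for most genes, the ligand columns red, and ITD line 7 has the lowest of the 9 ITD values for 24 genes.

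Against vector cells, the ITD lines had 25 of the 39 genes higher and none lower at a limma adjusted p under 0.05, where 8.82% of all genes were called higher and 14.0% in either direction. All 39 differences were above 0, with a median log2 difference of 0.52 (all genes, -0.01). The differences led with the checkpoint kinase Ttk (1.93-fold), the kinetochore motor Cenpe (1.84-fold), the cytokinesis scaffold Anln (1.70-fold) and the checkpoint kinase Bub1 (1.70-fold). For 26 genes every ITD array lay above both vector arrays (12.1% of all genes). The counts rested on the pair of vector arrays: with either one left out, 4 genes were called.

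Set against the mean of the 3 groups that received IL-3 (parental, vector and wild-type FLT3), 21 of 39 genes were higher in the ITD lines and none lower, where 11.2% of all genes were called higher and 19.4% in either direction. The median log2 difference was 0.30, and those of Kif23 and Pttg1 alone were below 0. The vector cells carried much of this count. With that group left out of the control mean, 6 genes were called (2491 of all genes). The count was 22 without the parental group (2771 of all genes) and 28 without the wild-type FLT3 group (4527 of all genes). Each of the 3 control pairs was also averaged and set as 1 unit beside the ITD lines. In that fit 20 of the 39 members and 3492 of the 20227 genes had an unadjusted limma p under 0.05. No member was called by limma (smallest adjusted p 0.0934), where 466 of all genes were. Without the second wild-type FLT3 array the count was 12. For none of the 39 genes did all 9 ITD arrays lie above all 6 of these control arrays (0.974% of all genes).

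Against parental cells, 5 of 39 genes were higher in the ITD lines and none lower (10.3% of all genes were called higher, 17% in either direction), a share near that of all genes. They were Aurka, Tpx2, Plk4, Ube2c and Cdk1, and the median over the 39 genes was 0.26. Without the first or second parental array 1 and 0 genes were called, and without ITD line 7 the count was 14. Against wild-type FLT3 cells without ligand, 3 of 39 were higher and none lower (3.27% called higher among all genes, 7.71% in either direction), namely Mki67, Aurkb and Ccnb2, with a median of 0.12. Every ITD array lay above both wild-type FLT3 arrays for Ccnb2 and Plk1 (5.57% of all genes) and below both for Pttg1 (9.33%). Leaving out either wild-type FLT3 array left none called, leaving out ITD line 2 left 1, and leaving out line 7 or line 9 gave 9 and 5. No member was called in all 3 of the comparisons with parental, vector and wild-type FLT3 cells, as 0.391% of all genes were.

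Against wild-type FLT3 cells given ligand, for which IL-3 is not stated, the direction turned. Here 36 of 39 differences were below 0 with a median of -0.21, and 4 genes were called lower in the ITD lines and none higher. Among all genes 4.08% were called lower and 5.80% in either direction. These 4 were Kif23 (0.52-fold), Ndc80 (0.53-fold), Pttg1 (0.63-fold) and Aurka (0.65-fold). For 10 genes all 9 ITD arrays lay below both ligand arrays (9.07% of all genes): Aurka, Bub1, Bub1b, Cdc20, Cdk1, Kif20a, Kif23, Kif2c, Ndc80 and Pttg1. No gene was called with either ligand array left out, and 8 and 7 were without ITD line 5 or line 9. When the gene values were quantile normalised once more, the median became -0.11, and among all genes 519 were called higher and 618 lower, against 347 and 826 without that step.

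Ligand given to wild-type FLT3 cells went with higher values of every measured mitosis gene. The cells without ligand received IL-3, and whether those with it did is not stated, so ligand and IL-3 cannot be told apart here. The median log2 difference was 0.42 (all genes, -0.01), but no member was called by limma. The error in this comparison was the shared one, which draws mostly on the spread among the ITD lines and less on these pairs. At an unadjusted p under 0.05, 19 of the 39 genes and 1555 of all genes differed, and no gene of the array was called (0%). The smallest adjusted p among the mitosis genes was 0.418, for Aurkb, and over all genes 0.141. Both ligand arrays lay above both arrays without ligand for 38 of the 39 genes (25% of all genes), the exception being Cenpa. The differences were largest for Cenpe (0.78 ± 0.28), Bub1 (0.74 ± 0.23), Anln (0.70 ± 0.28), Mki67 (0.67 ± 0.20) and Kif23 (0.66 ± 0.22), where the second value is the SE. They were near 0 for Cenpa (0.01 ± 0.11) and Ube2c (0.03 ± 0.14).

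Wild-type FLT3 without ligand, compared with the vector under the same IL-3, gave 7 of 39 genes higher and none lower (5.50% called higher among all genes, 8.22% in either direction), with a median of 0.36. The 7 were the kinetochore genes Ndc80 (0.95 ± 0.21 (adjusted p 0.00969)) and Spc25 (0.63 ± 0.16 (adjusted p 0.0206)), the kinases Cdk1 (0.60 ± 0.14 (adjusted p 0.0128)) and Plk4 (0.57 ± 0.17 (adjusted p 0.0486)), and the checkpoint pathway genes Cdc20 (0.57 ± 0.16 (adjusted p 0.0361)), Mad2l1 (0.53 ± 0.14 (adjusted p 0.0219)) and Bub1b (0.53 ± 0.16 (adjusted p 0.0449)). Mki67, Aurkb and Ccnb2 lay the other way, with both wild-type FLT3 arrays below both vector arrays (24.6% of all genes), and differed by -0.15 ± 0.20 (adjusted p 0.746), -0.12 ± 0.16 (adjusted p 0.761) and -0.12 ± 0.14 (adjusted p 0.698). For 32 genes both wild-type FLT3 arrays lay above both vector arrays (33.3% of all genes). None of the 7 calls was made without either vector array or without the first wild-type FLT3 array, and 1 was without the second. The count was 4 without either ligand array, 12 without ITD line 7, 4 after quantile normalisation once more and 4 with the replicate number as a block. Quantile normalisation also brought the split over all genes to 860 higher and 816 lower, against 1113 and 549 without it.

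Vector cells lay below parental cells, both under IL-3, for 35 of 39 genes, with a median of -0.28, and none was called by limma (2.23% of all genes were). At an unadjusted p under 0.05, 11 of the 39 genes and 14.5% of all genes differed. Both vector arrays were below both parental arrays for 32 genes (25.7% of all genes). The centromeric histone Cenpa came nearest, at -0.43 ± 0.11 (adjusted p 0.05), and the largest difference was that of Ttk, at -0.84 ± 0.28 (adjusted p 0.147). Without ITD line 7, whose spread enters the shared error, Bub3, Ttk, Cenpa and Mki67 were called lower in the vector cells. In that fit 764 of all genes were called in either direction. Aurka alone had both vector arrays above both parental arrays (29.3% of all genes), by 0.24 ± 0.20 (adjusted p 0.647). The ITD comparisons with parental, vector and wild-type FLT3 cells share the ITD arrays, so their counts are set side by side and not treated as separate evidence.

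**Figure D3:**
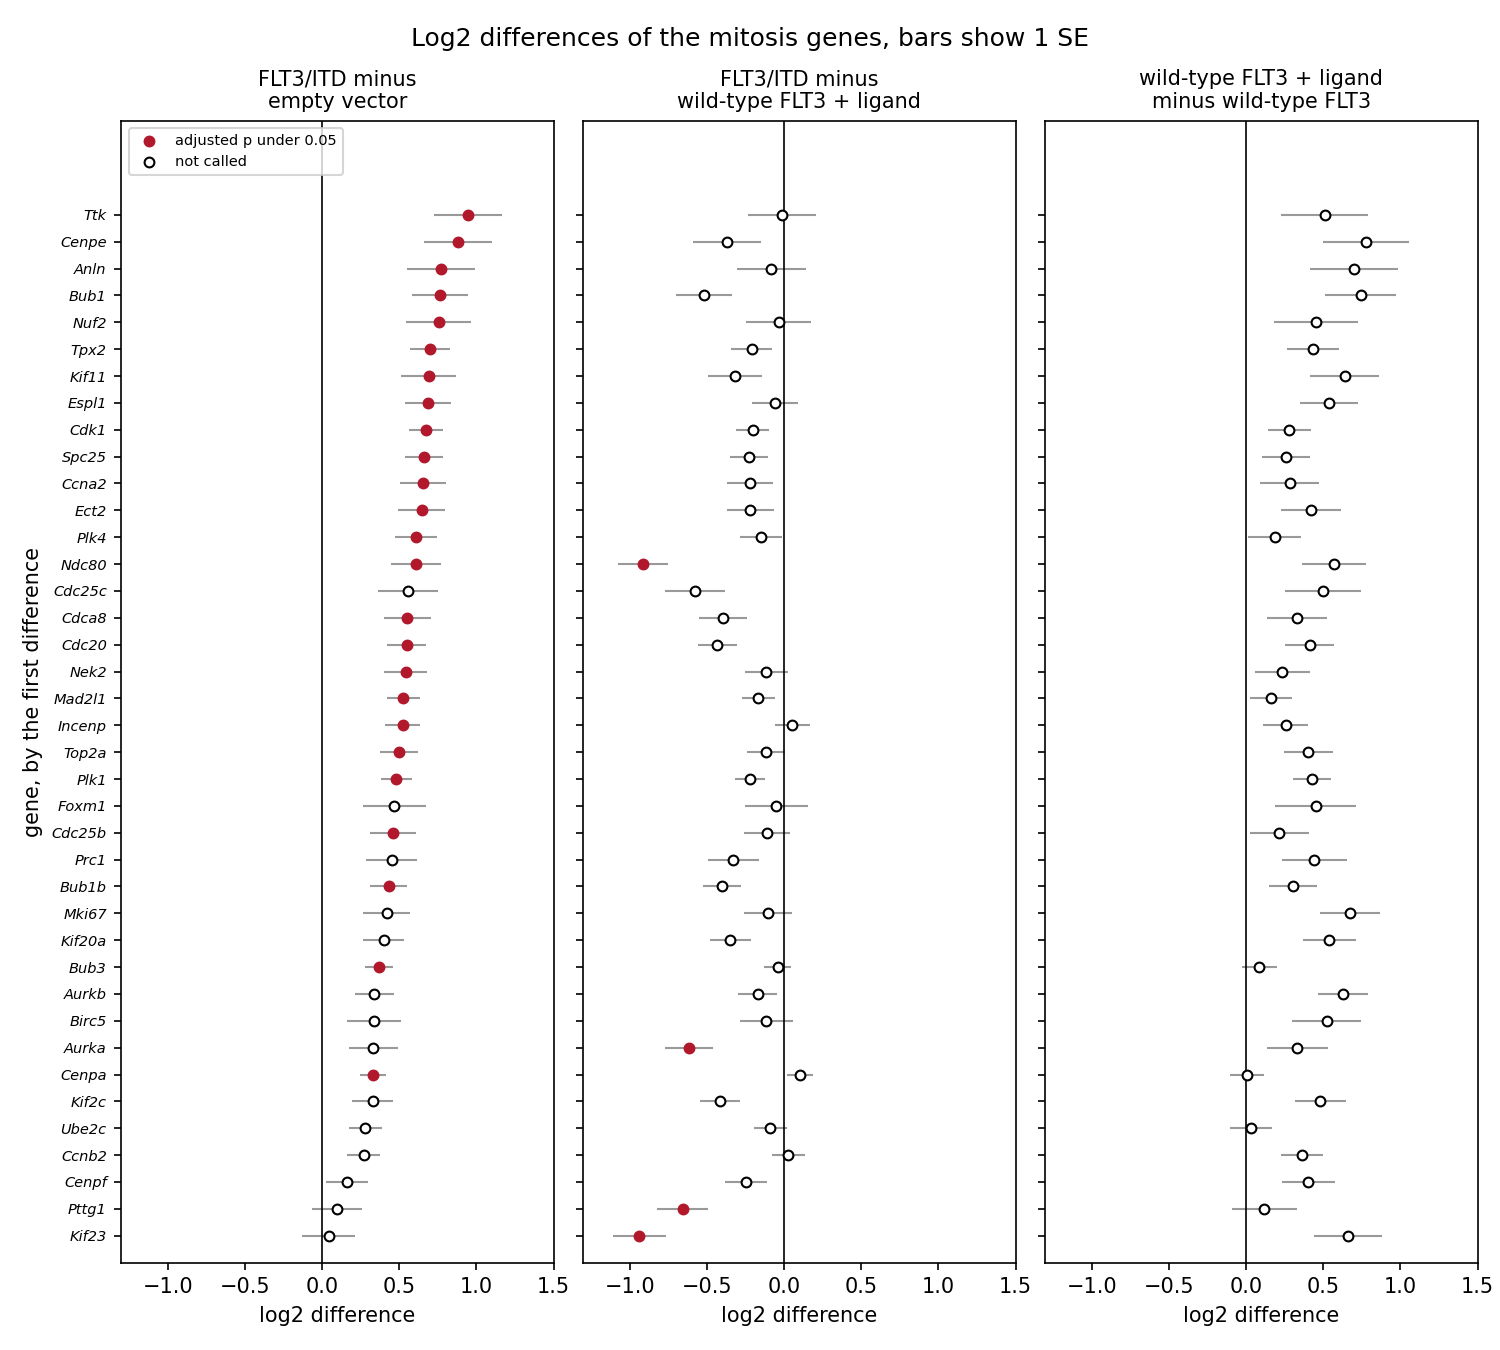
Log2 differences of 39 genes (vertical axis, ordered by the first panel) between groups (horizontal axis), with bars of 1 SE and filled points for a limma adjusted p under 0.05 over all genes. In the ITD minus vector panel 25 points are filled, all above 0, in the ITD minus ligand panel 4 are filled, all below 0, and in the ligand panel none is filled while all lie above 0.

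Among the kinase and cyclins that start mitosis, Cdk1 gave the most stable call. Its levels, given throughout as the lowest, median and highest of the 9 ITD lines and then both arrays of each other group, were 10.19, 10.54 and 10.64 in the ITD lines, 10.66 and 10.65 with ligand, 10.38 and 10.38 with wild-type FLT3 alone, 9.79 and 9.77 with the vector, and 10.13 and 10.11 in parental cells. All ITD arrays lay above the vector and parental arrays and below the ligand arrays, and they straddled the wild-type FLT3 arrays. Cdk1 was higher in the ITD lines than in vector cells by 0.67 ± 0.11 (adjusted p 0.000594), a call kept in every alternative tried for that comparison, arrays left out included. The difference was 0.34 ± 0.11 (adjusted p 0.0416) against parental cells, 0.08 ± 0.11 (adjusted p 0.744) against wild-type FLT3 and -0.20 ± 0.11 (adjusted p 0.333) against the ligand group. The call against parental cells was lost with the replicate block, with the median of probe sets and without the intensity trend in the variance prior, and also with ITD line 1, 2, 3, 5 or 6, or any single array of the other 4 groups, left out.

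Ccna2 (cyclin A2) was at 9.87, 10.51 and 10.69 over the ITD lines, against 10.64 and 10.76 (ligand), 10.48 and 10.35 (wild-type FLT3), 9.82 and 9.81 (vector) and 10.30 and 10.09 (parental). Line 7 gave its lowest ITD value, and yet all ITD arrays exceeded the vector arrays, with a rise of 0.66 ± 0.15 (adjusted p 0.00725). Ccnb2, which encodes the B-type cyclin that was measured, was at 10.90, 11.25 and 11.46 over the ITD lines, against 11.22 and 11.22 (ligand), 10.87 and 10.85 (wild-type FLT3), 10.97 and 10.99 (vector) and 11.38 and 11.28 (parental). For this gene the wild-type FLT3 cells were the low group, every ITD array was above both of their arrays, and the difference there was 0.39 ± 0.11 (adjusted p 0.0343), against 0.27 ± 0.11 (adjusted p 0.109) relative to the vector. The phosphatases that remove the inhibitory phosphates from Cdk1 were less clear. Cdc25b averaged 7.91 in the ITD lines, 8.02 with ligand, 7.80 with wild-type FLT3, 7.45 with the vector and 7.62 in parental cells, and its rise over the vector, 0.46 ± 0.15 (adjusted p 0.0487), was lost in 5 of the processing alternatives and with any single array other than those of ITD lines 7 and 9 left out. Cdc25c averaged 8.11 in the ITD lines, 8.69 with ligand, 8.19 with wild-type FLT3, 7.56 with the vector and 7.71 in parental cells. Its ITD lines spread widely, from 7.80 to 8.72, and it differed from the vector by 0.56 ± 0.19 (adjusted p 0.0663). Against the IL-3 control mean, Cdk1 differed by 0.36 ± 0.07 (adjusted p 0.00223), Ccna2 by 0.33 ± 0.10 (adjusted p 0.0283), Ccnb2 by 0.19 ± 0.07 (adjusted p 0.0739), Cdc25b by 0.28 ± 0.10 (adjusted p 0.0574) and Cdc25c by 0.29 ± 0.13 (adjusted p 0.135).

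Of 4 genes of Polo-like, NEK and Aurora A kinases, which organise centrosomes and spindle poles, 3 were called higher in the ITD lines than in vector cells. Among all genes 8.82% were, and the 3 calls rested on the pair of vector arrays. Plk1, needed for centrosome maturation and mitotic entry, was at 10.20, 10.31 and 10.62 in the ITD lines, 10.57 and 10.55 with ligand, 10.09 and 10.17 with wild-type FLT3 alone, 9.92 and 9.80 with the vector, and 10.21 and 10.22 in parental cells. Its ITD range lay above the vector and wild-type FLT3 arrays and reached down to the parental level, and it rose over the vector by 0.48 ± 0.10 (adjusted p 0.00356). Plk4, which starts centriole duplication, was at 9.11, 9.45 and 9.73 in the ITD lines, 9.51 and 9.60 with ligand, 9.43 and 9.30 with wild-type FLT3 alone, 8.81 and 8.79 with the vector, and 8.97 and 8.92 in parental cells. It rose over the vector by 0.61 ± 0.13 (adjusted p 0.00596) and over parental cells by 0.46 ± 0.13 (adjusted p 0.0246), with no overlap in either case. Nek2, a kinase of centrosome separation, averaged 9.21 in the ITD lines, 9.32 with ligand, 9.08 with wild-type FLT3, 8.66 with the vector and 8.92 in parental cells and rose over the vector by 0.54 ± 0.14 (adjusted p 0.0148).

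Aurka, the Aurora kinase of the spindle poles, did not follow the others. It was at 10.50, 10.67 and 11.21 in the ITD lines, 11.40 and 11.38 with ligand, 11.10 and 11.02 with wild-type FLT3 alone, 10.45 and 10.42 with the vector, and 10.26 and 10.14 in parental cells. Parental cells were its lowest group, the ITD lines lay above them and above the vector arrays, and the ITD lines lay below both ligand arrays. It was higher in the ITD lines than in parental cells by 0.57 ± 0.16 (adjusted p 0.0172) and lower than with ligand, at -0.62 ± 0.16 (adjusted p 0.026), while the difference from the vector was 0.33 ± 0.16 (adjusted p 0.17). The median of probe sets in place of the mean ended the call against the ligand group. Relative to the IL-3 control mean, Plk1 differed by 0.27 ± 0.07 (adjusted p 0.00826), Plk4 by 0.37 ± 0.09 (adjusted p 0.00854), Nek2 by 0.32 ± 0.09 (adjusted p 0.0249) and Aurka by 0.21 ± 0.10 (adjusted p 0.191).

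All 5 spindle checkpoint genes were called higher in the ITD lines than in vector cells, where 8.82% of all genes were. Like the count over the 39 genes, these calls rested on the pair of vector arrays. Ttk, which encodes the kinase Mps1 that starts checkpoint signalling at kinetochores, was at 8.26, 9.35 and 9.49 in the ITD lines, 9.14 and 9.26 with ligand, 8.74 and 8.63 with wild-type FLT3 alone, 8.25 and 8.22 with the vector, and 9.15 and 9.00 in parental cells. ITD line 7, at 8.26, was far below the other ITD lines and level with the vector arrays, while the other 8 lines lay at or above 8.98, near the parental and ligand arrays. Its difference was 0.95 ± 0.22 (adjusted p 0.00853) from the vector, 0.11 ± 0.22 (adjusted p 0.818) from parental cells and -0.02 ± 0.22 (adjusted p 0.982) from the ligand group. Bub1, a kinase at the kinetochore, was at 9.15, 9.81 and 10.17 in the ITD lines, 10.28 and 10.40 with ligand, 9.66 and 9.53 with wild-type FLT3 alone, 9.06 and 9.05 with the vector, and 9.39 and 9.29 in parental cells. It rose over the vector by 0.76 ± 0.18 (adjusted p 0.00937), with all ITD arrays above the vector and below the ligand arrays.

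Bub1b encodes BubR1, and Mad2l1 encodes Mad2, both parts of the complex that inhibits Cdc20. Bub1b averaged 10.01 in the ITD lines, 10.41 with ligand, 10.11 with wild-type FLT3, 9.58 with the vector and 9.81 in parental cells and rose over the vector by 0.43 ± 0.12 (adjusted p 0.0258). Mad2l1 averaged 10.35 in the ITD lines, 10.52 with ligand, 10.36 with wild-type FLT3, 9.82 with the vector and 10.27 in parental cells and rose by 0.53 ± 0.11 (adjusted p 0.00331). Bub3, which brings Bub1 and BubR1 to kinetochores, averaged 10.24 in the ITD lines, 10.28 with ligand, 10.20 with wild-type FLT3, 9.88 with the vector and 10.27 in parental cells, with the smallest rise of the 5, 0.37 ± 0.09 (adjusted p 0.0105). In the contrast with the IL-3 control mean, Ttk differed by 0.52 ± 0.15 (adjusted p 0.0215), Bub1 by 0.49 ± 0.12 (adjusted p 0.00941), Mad2l1 by 0.20 ± 0.07 (adjusted p 0.058), Bub1b by 0.18 ± 0.08 (adjusted p 0.151) and Bub3 by 0.13 ± 0.06 (adjusted p 0.153). None of the 5 was called against parental cells, wild-type FLT3 or the ligand group.

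Of the 6 centromere and kinetochore genes, 5 were called higher in the ITD lines than in vector cells, where 8.82% of all genes were. These calls, too, rested on the pair of vector arrays. Cenpe, a kinesin that carries chromosomes to the spindle equator, was at 7.87, 8.20 and 8.94 in the ITD lines, 8.62 and 8.78 with ligand, 8.04 and 7.80 with wild-type FLT3 alone, 7.48 and 7.41 with the vector, and 8.03 and 7.85 in parental cells. Lines 4 and 5 stood highest, at 8.94 and 8.90, above the ligand arrays, and the other 7 ran from 7.87 to 8.47. It rose over the vector by 0.88 ± 0.22 (adjusted p 0.0122). The NDC80 complex, which binds microtubules at the outer kinetochore, was represented by Ndc80, Nuf2 and Spc25, whose levels did not move alike. Ndc80 was at 7.80, 8.30 and 8.69 in the ITD lines, 9.22 and 9.28 with ligand, 8.69 and 8.67 with wild-type FLT3 alone, 7.66 and 7.79 with the vector, and 8.17 and 8.07 in parental cells.

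Both ligand arrays stood above every ITD array for Ndc80, and the wild-type FLT3 arrays lay at the top of the ITD range. It was lower in the ITD lines than with ligand, at -0.91 ± 0.16 (adjusted p 0.00278), and higher than in vector cells, at 0.61 ± 0.16 (adjusted p 0.0201). Its partner Nuf2 was at 7.40, 8.30 and 8.62 in the ITD lines, 8.22 and 8.25 with ligand, 7.80 and 7.75 with wild-type FLT3 alone, 7.52 and 7.37 with the vector, and 7.71 and 7.76 in parental cells. Here ITD lines 1, 2, 3, 4 and 9 lay above both ligand arrays, line 5, at 8.19, just below them, and lines 6, 7 and 8 lower. Nuf2 differed by -0.03 ± 0.21 (adjusted p 0.959) from the ligand group and 0.76 ± 0.21 (adjusted p 0.0248) from the vector. Spc25 averaged 9.11 in the ITD lines, 9.33 with ligand, 9.07 with wild-type FLT3, 8.45 with the vector and 8.90 in parental cells and rose over the vector by 0.66 ± 0.12 (adjusted p 0.00193). Cenpa, the histone variant that marks centromeres, averaged 9.24 in the ITD lines, 9.13 with ligand, 9.13 with wild-type FLT3, 8.90 with the vector and 9.33 in parental cells, and rose over the vector by 0.33 ± 0.08 (adjusted p 0.014). Cenpf, a large kinetochore protein, averaged 7.86 in the ITD lines, 8.10 with ligand, 7.70 with wild-type FLT3, 7.69 with the vector and 7.88 in parental cells and differed from the vector by 0.16 ± 0.14 (adjusted p 0.466). Set against the 3 groups given IL-3, Cenpe differed by 0.56 ± 0.15 (adjusted p 0.013), Nuf2 by 0.54 ± 0.14 (adjusted p 0.0132), Spc25 by 0.30 ± 0.08 (adjusted p 0.0175), Ndc80 by 0.16 ± 0.11 (adjusted p 0.348), Cenpa by 0.12 ± 0.06 (adjusted p 0.169) and Cenpf by 0.10 ± 0.09 (adjusted p 0.502).

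The chromosomal passenger complex corrects faulty attachments and later guides cytokinesis. Its kinase Aurkb was at 9.59, 10.06 and 10.31 in the ITD lines, 10.19 and 10.16 with ligand, 9.46 and 9.62 with wild-type FLT3 alone, 9.64 and 9.68 with the vector, and 9.81 and 9.80 in parental cells. The wild-type FLT3 cells were the low group here, and line 7 alone among the ITD lines reached their range. Aurkb was higher in the ITD lines than with wild-type FLT3 by 0.46 ± 0.13 (adjusted p 0.0342), and differed from the vector by 0.34 ± 0.13 (adjusted p 0.0838). Incenp, the scaffold that activates Aurora B, was at 8.47, 8.78 and 8.98 in the ITD lines, 8.70 and 8.70 with ligand, 8.51 and 8.39 with wild-type FLT3 alone, 8.31 and 8.16 with the vector, and 8.57 and 8.45 in parental cells. It rose over the vector by 0.52 ± 0.11 (adjusted p 0.00561) and differed from the ligand group by 0.05 ± 0.11 (adjusted p 0.864). Cdca8 (borealin) averaged 9.30 in the ITD lines, 9.70 with ligand, 9.37 with wild-type FLT3, 8.75 with the vector and 9.03 in parental cells and rose over the vector by 0.55 ± 0.15 (adjusted p 0.0227). Birc5 (survivin) averaged 9.75 in the ITD lines, 9.86 with ligand, 9.34 with wild-type FLT3, 9.41 with the vector and 9.31 in parental cells, with line 9 highest at 10.34, and differed from the vector by 0.34 ± 0.17 (adjusted p 0.217). Against the IL-3 control mean, Incenp differed by 0.36 ± 0.08 (adjusted p 0.00352), Aurkb by 0.33 ± 0.08 (adjusted p 0.0109), Birc5 by 0.39 ± 0.12 (adjusted p 0.0259) and Cdca8 by 0.25 ± 0.10 (adjusted p 0.0992).

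Spindle assembly genes were Tpx2, Kif11 and Kif2c. Tpx2, the activator of Aurora A and a microtubule nucleator, was at 8.79, 9.21 and 9.36 in the ITD lines, 9.30 and 9.38 with ligand, 8.98 and 8.83 with wild-type FLT3 alone, 8.48 and 8.38 with the vector, and 8.76 and 8.57 in parental cells. All ITD arrays lay above the vector and parental arrays, with a rise of 0.70 ± 0.13 (adjusted p 0.00191) over the vector and 0.46 ± 0.13 (adjusted p 0.0207) over parental cells. Kif11, whose promoter holds 1 CCAAT box and 1 CHR near its start, was at 9.29, 9.91 and 10.24 in the ITD lines, 10.13 and 10.27 with ligand, 9.65 and 9.47 with wild-type FLT3 alone, 9.17 and 9.21 with the vector, and 9.68 and 9.45 in parental cells. It rose over the vector by 0.69 ± 0.18 (adjusted p 0.0142), with line 7, at 9.29, the only ITD value under 9.65. Kif2c, a kinesin that takes microtubules apart at kinetochores, averaged 9.24 in the ITD lines, 9.65 with ligand, 9.17 with wild-type FLT3, 8.91 with the vector and 9.14 in parental cells and differed by 0.33 ± 0.13 (adjusted p 0.11) from the vector. Relative to the IL-3 control mean, Tpx2 differed by 0.46 ± 0.09 (adjusted p 0.00145), Kif11 by 0.44 ± 0.12 (adjusted p 0.0145) and Kif2c by 0.16 ± 0.09 (adjusted p 0.22).

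Genes of the anaphase-promoting complex and of sister separation split into those that rose and those that did not. Cdc20, the activator that the checkpoint holds back, averaged 9.48 in the ITD lines, 9.91 with ligand, 9.49 with wild-type FLT3, 8.93 with the vector and 9.22 in parental cells and rose over the vector by 0.55 ± 0.12 (adjusted p 0.00717). Espl1 (separase) was at 7.71, 8.29 and 8.52 in the ITD lines, 8.32 and 8.34 with ligand, 7.87 and 7.72 with wild-type FLT3 alone, 7.59 and 7.58 with the vector, and 8.10 and 7.95 in parental cells. Line 7 lay near the vector and wild-type FLT3 arrays and the other 8 lines above all of them, and Espl1 rose over the vector by 0.69 ± 0.15 (adjusted p 0.00519). Pttg1 encodes securin, the inhibitor that separase is freed from, and was at 9.23, 9.59 and 10.13 in the ITD lines, 10.20 and 10.35 with ligand, 10.14 and 10.16 with wild-type FLT3 alone, 9.50 and 9.54 with the vector, and 9.54 and 9.43 in parental cells. Its ITD arrays were all below the wild-type FLT3 arrays with and without ligand and overlapped the vector and parental arrays. It was lower in the ITD lines than with ligand, at -0.66 ± 0.16 (adjusted p 0.0249), differed from wild-type FLT3 without ligand by -0.54 ± 0.16 (adjusted p 0.0549) and from the vector by 0.10 ± 0.16 (adjusted p 0.744). Ube2c, the ubiquitin-conjugating enzyme of this ligase, averaged 9.59 in the ITD lines, 9.68 with ligand, 9.65 with wild-type FLT3, 9.31 with the vector and 9.22 in parental cells and rose over parental cells by 0.38 ± 0.11 (adjusted p 0.0222). In the contrast with the IL-3 control mean, Espl1 differed by 0.47 ± 0.10 (adjusted p 0.00326), Cdc20 by 0.26 ± 0.08 (adjusted p 0.0358), Ube2c by 0.20 ± 0.07 (adjusted p 0.0639) and Pttg1 by -0.10 ± 0.11 (adjusted p 0.57).

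Cytokinesis genes held both Kif23, which was not called higher in the ITD lines than in vector cells, and Anln, which was. Kif23, the kinesin of the centralspindlin complex at the midzone, was at 8.34, 8.92 and 9.27 in the ITD lines, 9.81 and 9.87 with ligand, 9.20 and 9.16 with wild-type FLT3 alone, 8.85 and 8.87 with the vector, and 9.10 and 8.93 in parental cells. Both ligand arrays stood apart above all 15 others, and the ITD lines overlapped the vector and parental arrays, with line 9 lowest. Kif23 was lower in the ITD lines than with ligand, at -0.94 ± 0.17 (adjusted p 0.00315), and differed from the vector by 0.04 ± 0.17 (adjusted p 0.901). Anln (anillin), which links actin, myosin and septins in the contractile ring, was at 7.22, 8.21 and 8.41 in the ITD lines, 8.06 and 8.23 with ligand, 7.55 and 7.34 with wild-type FLT3 alone, 7.24 and 7.35 with the vector, and 7.53 and 7.35 in parental cells. Its ITD lines other than line 7 lay above all vector, parental and wild-type FLT3 arrays. It rose over the vector by 0.77 ± 0.22 (adjusted p 0.028) and differed from the ligand group by -0.08 ± 0.22 (adjusted p 0.899).

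Ect2, the exchange factor that turns on RhoA at the division plane, averaged 9.64 in the ITD lines, 9.86 with ligand, 9.44 with wild-type FLT3, 9.00 with the vector and 9.43 in parental cells and rose over the vector by 0.65 ± 0.15 (adjusted p 0.00924). Prc1, which bundles midzone microtubules, averaged 9.44 in the ITD lines, 9.77 with ligand, 9.32 with wild-type FLT3, 8.99 with the vector and 9.17 in parental cells and differed from the vector by 0.45 ± 0.16 (adjusted p 0.0806). Kif20a, a midzone kinesin, averaged 9.33 in the ITD lines, 9.68 with ligand, 9.13 with wild-type FLT3, 8.93 with the vector and 8.95 in parental cells, and differed from the vector by 0.40 ± 0.13 (adjusted p 0.0548). Set against the 3 groups given IL-3, Anln differed by 0.67 ± 0.15 (adjusted p 0.0046), Ect2 by 0.35 ± 0.10 (adjusted p 0.0233), Kif20a by 0.32 ± 0.09 (adjusted p 0.0178), Prc1 by 0.28 ± 0.11 (adjusted p 0.0915) and Kif23 by -0.12 ± 0.11 (adjusted p 0.533).

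Mki67, the gene of the proliferation antigen Ki-67 that coats mitotic chromosomes, differed from most of the list in its order of groups. It was at 10.07, 10.60 and 10.85 in the ITD lines, 10.59 and 10.76 with ligand, 10.11 and 9.90 with wild-type FLT3 alone, 10.15 and 10.16 with the vector, and 10.77 and 10.68 in parental cells. The parental arrays lay within the upper part of the ITD range, and the wild-type FLT3 arrays and line 7 were the lowest of the 17. Mki67 was higher in the ITD lines than with wild-type FLT3, at 0.57 ± 0.15 (adjusted p 0.0315), but differed by -0.15 ± 0.15 (adjusted p 0.597) from parental cells and by 0.42 ± 0.15 (adjusted p 0.0812) from the vector. Top2a, the topoisomerase that untangles sister chromatids, averaged 10.62 in the ITD lines, 10.73 with ligand, 10.33 with wild-type FLT3, 10.12 with the vector and 10.39 in parental cells, and rose over the vector by 0.50 ± 0.12 (adjusted p 0.0122). Foxm1, a transcription factor of G2 and M phase genes, was at 7.51, 8.42 and 8.67 in the ITD lines, 8.25 and 8.50 with ligand, 8.0 and 7.85 with wild-type FLT3 alone, 7.89 and 7.83 with the vector, and 8.16 and 7.83 in parental cells. Line 7 was its lowest array of all 17, and Foxm1 differed from the vector by 0.47 ± 0.21 (adjusted p 0.142). Against the IL-3 control mean, Top2a differed by 0.34 ± 0.08 (adjusted p 0.00858), Foxm1 by 0.40 ± 0.14 (adjusted p 0.0523) and Mki67 by 0.28 ± 0.10 (adjusted p 0.0692).

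**Figure D4:**
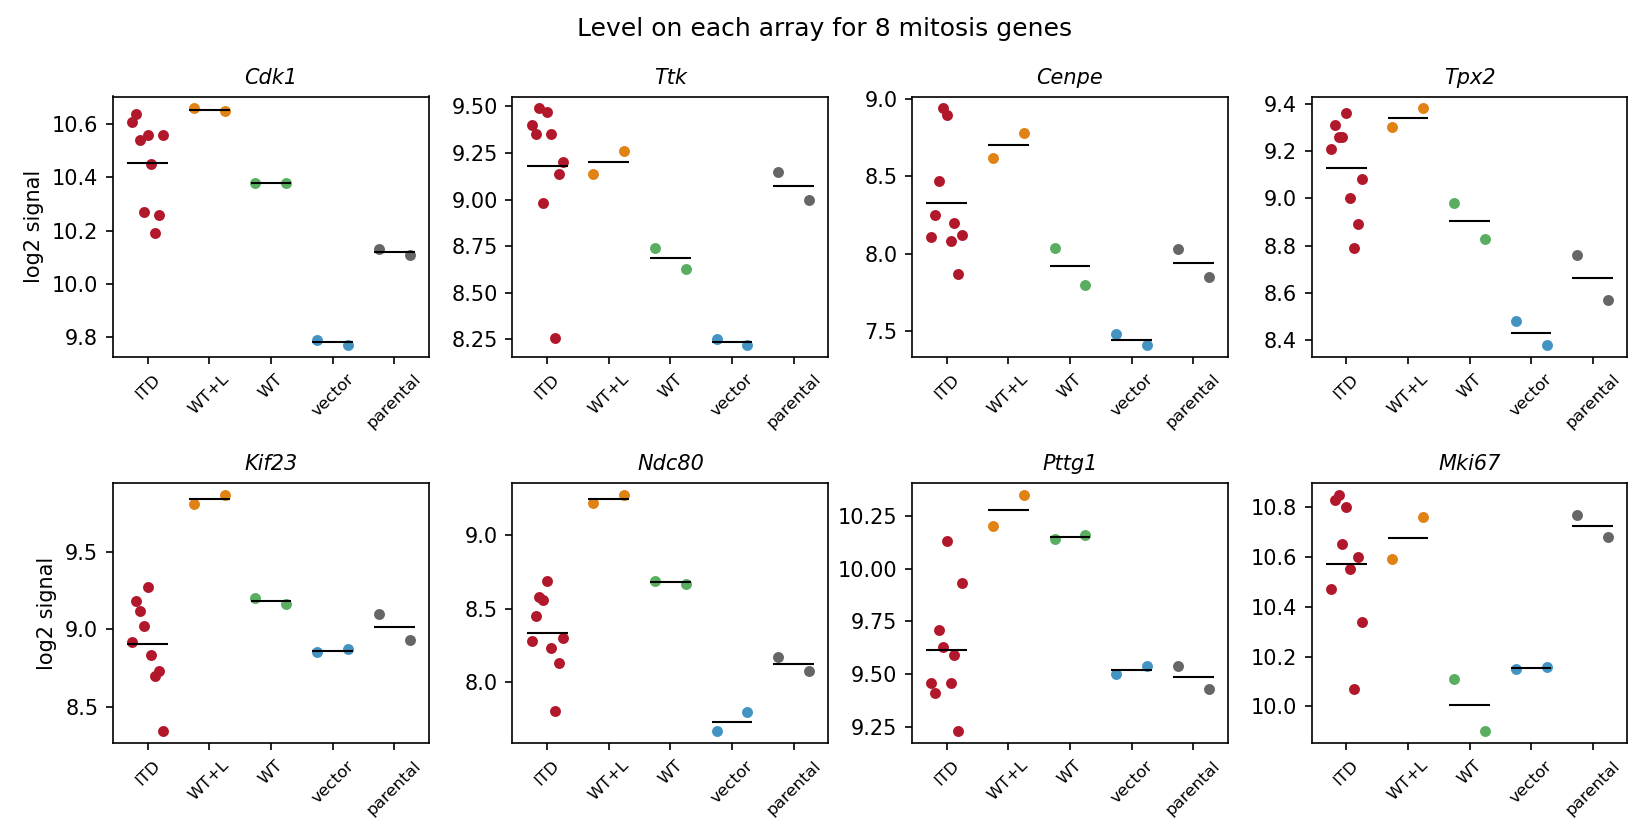
Log2 signal (vertical axes, each with its own range that does not start at 0) of 8 genes on every array, by group, with points for arrays and lines for group means; WT+L stands for wild-type FLT3 with ligand. Kif23, Ndc80 and Pttg1 have both ligand arrays above every ITD array, Ttk has line 7 at 8.26 near the vector arrays, and Mki67 has its parental arrays within the ITD range.

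Single probe sets pointed the same way within most genes. Of the 857 probe sets, the ITD mean exceeded the vector mean in 788 (91.9%, against 54.4% of all probe sets used) and the parental mean in 652 (76.1%, against 52.7%). It exceeded the wild-type FLT3 mean in 599 (69.9%, against 49.3%). The ligand mean exceeded the mean without ligand in 808 (94.3%, against 53.5%), and the ITD mean exceeded the ligand mean in 155 (18.1%, against 46.3%). Probe sets of a gene share its transcript, so these shares describe the array and not replicates. For Kif23, 16 of 30 probe sets were higher in the ITD lines than in vector cells and none was higher than with ligand. All 50 of the Cenpe probe sets and all 28 of Ndc80 were higher with ligand than without it. For Pttg1, none of 9 probe sets was higher in the ITD lines than with wild-type FLT3 alone.

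The spread among the ITD lines was set against that within the control pairs. The median SD over the 9 ITD lines was 0.238, against 0.0743 within the control pairs, where the figures over all genes were 0.199 and 0.124. The ITD lines carry 9 different mutants, while each pair shares its genotype. By an F ratio of the 2 variances, 27 of 39 genes had an unadjusted p under 0.05 (24.3% of all genes). Of the 39, 1 gene, Cdk1, passed the adjusted threshold (2.55% of all genes), a share near that of all genes. Its SD was 0.17 over the ITD lines and 0.010 within the pairs (adjusted p 0.023), and the ITD lines fell at 10.45 or higher (lines 1, 2, 3, 5, 6 and 9) and at 10.27 or lower (lines 4, 7 and 8). Nuf2 came next, with SDs of 0.37 and 0.059 (adjusted p 0.053). The number of called genes was 0 with the median of probe sets, 5 with a stricter filter on dim probe sets and 6 after quantile normalisation once more.

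Line 7 had the lowest ITD value for 24 of the 39 genes, against 16.8% of all genes, and for 2 genes lay above all 6 parental, vector and wild-type FLT3 arrays (16.9% of all genes). The 24 included Ttk, Anln, Foxm1, Nuf2, Ndc80 and Bub1. It was the highest ITD line for Cenpa, at 9.36. Line 5 was highest for 16 genes (11.7% of all genes), among them Aurka, Cdc20, Plk1, Pttg1 and Kif23, and lay above all 6 of those control arrays for 36 genes (19.2% of all genes). Line 3 was highest for 11 (9.2% of all genes), among them Ttk, Mki67, Top2a, Espl1 and Foxm1. Counts of lines 6, 8 and 9 were nearer to their shares over all genes. Line 8 was lowest for 7 of 39 genes, where it was lowest for 14.3% of all genes, and line 6 for 5 (6.0% of all genes). Line 9 was highest for 5, Birc5, Aurkb, Ccnb2, Ccna2 and Nuf2 (14.2% of all genes), and lowest for 3, Kif23, Kif2c and Incenp (13.7% of all genes). Without line 7, 29 genes were called against the IL-3 control mean and 32 against the vector. Calls over all genes rose too, from 3917 to 4792 and from 2838 to 3720. As line 7 was lowest for 24 of these genes, leaving it out raised their ITD means. Foxm1, Ccnb2, Prc1 and Mki67 were among the genes then called in both.

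Genes that work beside these in mitosis were counted from lists made for this purpose, first against vector cells, where 8.82% of all genes were called higher, and with the 4 largest called differences of each list named. Of 32 other kinetochore genes measured among 34 listed, 19 were higher in the ITD lines and none lower, with a median of 0.62. They were led by Knl1, the scaffold that recruits Bub1 (1.06 ± 0.23, adjusted p 0.00479), Oip5, which takes part in loading the centromeric histone (0.92 ± 0.19, adjusted p 0.00372), Ska2, of the complex that tracks microtubule ends (0.84 ± 0.18, adjusted p 0.00565), and the inner kinetochore gene Cenpq (0.81 ± 0.13, adjusted p 0.000648). Of 30 other spindle and cytokinesis genes 22 were higher and none lower (median 0.60). The largest were Gtse1, a microtubule-binding protein expressed in G2 and S phase (1.14 ± 0.21, adjusted p 0.00157), the spindle protein gene Hmmr (1.07 ± 0.22, adjusted p 0.004), and the mitotic kinesins Kif15 (1.05 ± 0.17, adjusted p 0.000541) and Kif20b (0.93 ± 0.17, adjusted p 0.00205). Of 19 condensin and cohesin genes, whose rings shape and hold chromatids, 11 were higher and none lower (median 0.49). The cohesin acetyltransferase Esco2 (1.05 ± 0.19, adjusted p 0.00189) came first, followed by the condensin subunits Ncapg (0.87 ± 0.16, adjusted p 0.00138), Ncaph (0.82 ± 0.14, adjusted p 0.000929) and Ncapg2 (0.75 ± 0.17, adjusted p 0.00696).

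Of 18 genes that control entry into and exit from mitosis 7 were higher and none lower than in vector cells (median 0.32). The kinase Pbk (0.80 ± 0.13, adjusted p 0.000648) led, with the Greatwall kinase Mastl (0.62 ± 0.18, adjusted p 0.0301), the kinase Melk (0.57 ± 0.16, adjusted p 0.0261) and Ccnf, which encodes cyclin F (0.56 ± 0.10, adjusted p 0.00132). Of 17 subunits and regulators of the anaphase-promoting complex 4 were higher and none lower (median 0.30). These were Ube2s, which extends its ubiquitin chains (0.74 ± 0.17, adjusted p 0.00802), and the subunits Cdc23 (0.61 ± 0.10, adjusted p 0.000793), Cdc16 (0.34 ± 0.09, adjusted p 0.016) and Anapc1 (0.30 ± 0.09, adjusted p 0.0251). Of 19 DREAM, MuvB and E2F genes, whose products bind the promoters of cell cycle genes, 6 were higher and none lower (median 0.36). Lin9 of MuvB (0.62 ± 0.18, adjusted p 0.0269) was followed by the E2F family genes E2f7 (0.56 ± 0.14, adjusted p 0.0108), E2f6 (0.53 ± 0.12, adjusted p 0.00634) and E2f4 (0.51 ± 0.11, adjusted p 0.00485). Of 39 genes of the G1 to S transition and DNA replication 10 were higher and none lower (median 0.27). The checkpoint kinase Chek1 (0.86 ± 0.19, adjusted p 0.00662), the DNA polymerase gene Pole (0.77 ± 0.18, adjusted p 0.00912), the origin-firing kinase Cdc7 (0.69 ± 0.21, adjusted p 0.0343) and the clamp loader gene Rfc4 (0.67 ± 0.17, adjusted p 0.0138) were the largest. Of 14 inhibitors of cyclin-dependent kinases and antiproliferative genes, Cdkn2c was higher, at 0.50 ± 0.15 (adjusted p 0.0293), and the stress gene Gadd45b was lower, at -0.60 ± 0.14 (adjusted p 0.00888).

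These counts, too, rested on the pair of vector arrays. Without the first vector array the 8 lists, in the order above, had 3, 4, 4, 2, 1, 0, 0 and 0 genes higher, and without the second 2, 4, 3, 2, 1, 0, 0 and 0, with none lower in either case, while calls over all genes fell to 791 and 706 of 2838. Against the IL-3 control mean, where 11.2% of all genes were called higher, the first 7 lists had 16, 17, 11, 7, 4, 7 and 11 genes higher with none lower, and the inhibitors none higher and 2 lower. Those 2 were the antiproliferative gene Btg1, at -0.98 ± 0.20 (adjusted p 0.00256), and Gadd45b, at -0.34 ± 0.10 (adjusted p 0.0189). With the vector group left out of the control mean, 1364 of all 20227 genes were called higher and 1127 lower. The first 7 lists then had 5, 4, 2, 1, 1, 6 and 6 genes higher and the inhibitors 1 lower. With ligand compared to without it, no gene of the 8 lists was called, and the medians were 0.40, 0.39, 0.30, 0.26, 0.21, 0.20, 0.38 and -0.01.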

How the data were processed

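RNA of 17 cultures was hybridised to Affymetrix mouse exon arrays. The authors deposited log2 probe set signals, with RMA and version 1.1 of Affymetrix Expression Console named in the submitters' processing notes. The genome build of that step is not given in the sources used here. The arrays' median signals lay between 4.63 and 4.69, and their number limits the precision.

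A probe set was used if the platform table gives it 1 gene symbol (318760 of 1256831 did, 6684 gave several and 931387 none) and its mean over 17 arrays exceeded the median probe set mean (4.60), which left 237584 probe sets. A gene's level is the mean of its probe sets, for 20227 genes. Symbols were updated through RefSeq gene tables (4227 changed, 63 unmatched). Group means were fitted on all arrays with limma 3.58.1 (R 4.3.3; lmFit, eBayes with trend, 12 residual degrees of freedom, 8 of them from the ITD lines), and 8 contrasts were tested, two-sided, with Benjamini-Hochberg adjustment over all genes at 0.05. Variation among ITD lines was tested by a one-sided F ratio (8 and 4 degrees of freedom). The fit was tested on simulated data. A lone array left in a group is assumed to vary like the other groups.

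The members, lists and tests were chosen with earlier results of these data known. Every member is named, and from each other list up to 4 of the genes called against the vector with the largest difference, and the inhibitors called against the IL-3 control mean. Same-numbered control arrays did not deviate together (correlations between -0.12 and 0.09), so the numbers were not taken to pair samples. Alternatives were the filter on dim probe sets, the median of probe sets, quantile normalisation once more, no trend, the replicate block, other control means, control pairs averaged to 1 unit each, and each array left out.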

Additional observations from a re-analysis of the deposited data

Results flagged for a closer look

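For 5 genes a single ITD line stood far from the others, with a gap to its nearest neighbour that exceeded Dixon's 95% criterion for 9 values, and each time it was line 7 at the low end. Ttk, the checkpoint kinase, was at 8.26 there and at 8.98 in the next line. Ccna2 (cyclin A2) was at 9.87, against 10.41 in the next line. Kif20a, the midzone kinesin, was at 8.86, against 9.24. Espl1 (separase) was at 7.71, against 8.20. Foxm1, the transcription factor, was at 7.51, against 8.18. The criterion was applied to 40 sets of ITD values, and chance flags about 1 in 20, but genes of 1 array are not independent. The mean over all genes on this array, 7.25, lay within the range of the others, and its median correlation with the other ITD arrays over all genes was 0.969, the lowest of the 9 (range 0.969 to 0.982).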

How the results depend on the processing

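No call of a member changed its direction under any alternative, and the median difference of the members kept its sign in all 8 contrasts. Counts of called members moved by over 1.5 times in the following cases. Against the IL-3 control mean the 21 became 6 without the vector group and 0 with each control pair averaged to 1 unit. Against wild-type FLT3 the 3 became 5 (4 higher, 1 lower) with the stricter filter, 1 with the median of probe sets and 6 (5 higher, 1 lower) after quantile normalisation. For wild-type FLT3 minus vector the 7 became 4 after quantile normalisation and 4 with the replicate block. For vector minus parental the 0 became 1 with no filter, 1 with the stricter filter, 1 with the median and 2 after quantile normalisation. For variation among ITD lines the 1 became 2 with no filter, 5 with the stricter filter, 0 with the median and 6 after quantile normalisation. The causes were not tested.

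With each array left out in turn, the member counts ran from 12 to 29 for the IL-3 control mean, 0 to 14 for parental, 4 to 32 for vector, 0 to 9 for wild-type FLT3, 0 to 8 for the ligand group, 0 to 0 for ligand minus wild-type FLT3, 0 to 12 for wild-type FLT3 minus vector, 0 to 4 for vector minus parental and 1 to 2 for variation. The counts over all genes ran, in the same order, from 2675 to 4792 (3917), 1400 to 3897 (3439), 706 to 3720 (2838), 281 to 2463 (1559), 243 to 1500 (1173), 0 to 4 (0), 456 to 2116 (1662), 105 to 764 (451) and 157 to 700 (516), with the count on all arrays in brackets. Other moves over all genes were 2491 without the vector group, 466 with control pairs averaged, 1 for ligand minus wild-type FLT3 and 681 for vector minus parental after quantile normalisation, and 317, 1213, 50 and 873 for variation with no filter, the stricter filter, the median and quantile normalisation.

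The replicate block left 21, 4, 24, 3, 4, 0, 4 and 0 members called in the 8 contrasts, and moved by over 1.5 times the count for wild-type FLT3 minus vector alone. The crossed pairing, added after seeing the data, gave 0 for ligand minus wild-type FLT3.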
